A study of Homo sapiens with 18 samples.

Results

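The tumour necrosis factor (TNF) receptors and their adaptors were described here through the quadruplex motifs in their genes. The 10 genes are *TNFRSF1A*, *TNFRSF1B*, *TRADD*, *RIPK1* and *TRAF1* to *TRAF6*, matched by symbol, and all 10 were listed in each of the 5 tables. These tables hold 16616 different genes in all. The study used RNA-seq to follow CM03, a small molecule that binds DNA quadruplexes, in GemMIA-R3 cells, which were selected from the established human pancreatic cancer cell line MIA PaCa-2 under rising doses of the drug gemcitabine. There were 18 libraries in 6 groups of 3, namely GemMIA-R3 cells with 400 nM CM03 and with vehicle, and parental cells without CM03, each at 6 h and 24 h. Gemcitabine was left out of the medium of the resistant cells for some days before use, and the tables for CM03 in parental cells come from libraries of an earlier study that are not among these 18. The 5 tables give the log2 fold changes and false discovery rates of the authors' own comparisons, which were not used here, so no change in the level of any gene is reported, and the depth of the libraries is unknown. What was analysed is the reference sequence of the genes in hg38 and a column of the tables for parental cells, the number of putative quadruplex motifs (PQs) of each gene. This number belongs to the gene and not to a library, so it has no replicate error and differences between genes were not tested.

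TNF binds a pair of receptors, of which TNFR1 (from *TNFRSF1A*) is found on most cells and carries a death domain, while TNFR2 (from *TNFRSF1B*) has none and binds TRAF proteins directly. TNFR1 gathers the adaptor TRADD, the kinase RIPK1 and TRAF2 at the membrane, and this complex turns on NF-κB and MAP kinase signalling or, in a later form, cell death. A quadruplex can form where 4 short runs of guanines lie close together on a strand, and such motifs in genes are the sites to which compounds such as CM03 are directed.

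Members differed widely in their PQs, from 1 in *TRAF6* to 31 in *TNFRSF1B*. The median over the 10 genes was 10.5, against 5 over the 13503 genes of the tables. In all, 7 members had more PQs than the median gene, as did 45.1% of all genes, and 3 had more than the upper quartile of 11, as did 24.1% of all genes. *TRADD* and *RIPK1* were at the median, and *TRAF6* was below it.

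**Figure D1:**
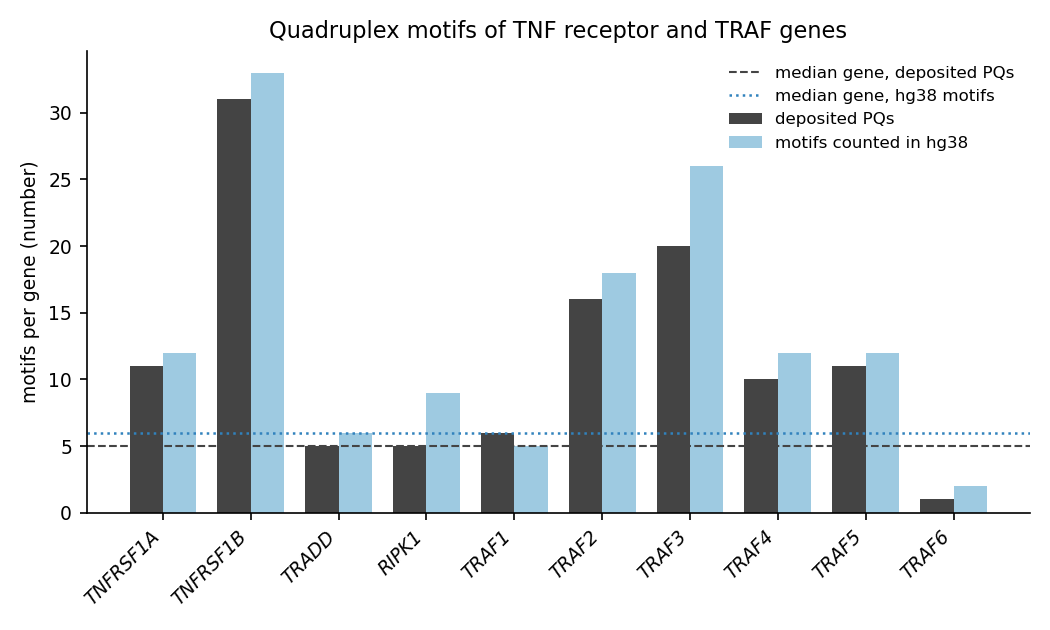
Number of quadruplex motifs per gene for the 10 members, as deposited (dark bars) and as counted in hg38 (light bars), with the median of all genes for each count as a dashed and a dotted line. *TNFRSF1B* stands highest at 31 and 33, and *TRAF6* lowest at 1 and 2.

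The receptors were both rich in motifs. *TNFRSF1B* was listed with 31 PQs, more than 93.9% of all genes, and *TNFRSF1A* with 11, more than 73.7%. Relative to the length searched, the receptors were nearly level, at 0.719 PQs per kb for *TNFRSF1A* and 0.701 for *TNFRSF1B*, where the median gene had 0.132. The length here is the canonical transcript and 2000 bases upstream of it, in hg38. The larger number of *TNFRSF1B* went with a longer gene, of 42.2 kb against 13.3 kb.

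The adaptors that join TNFR1 first had fewer. *TRADD*, the scaffold that binds the death domain of TNFR1, was listed with 5 PQs, and *RIPK1*, the kinase whose ubiquitinated form holds the signalling complex together, also with 5. Both were above 48.9% of all genes. The 2 genes parted once length was considered, since *TRADD* spans 5.72 kb and *RIPK1* 46.7 kb. *TRADD* had 0.647 PQs per kb, above 86.4% of genes, and *RIPK1* 0.103 per kb, above 42.6%.

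Among the TRAF genes the order by PQs was *TRAF3*, *TRAF2*, *TRAF5*, *TRAF4*, *TRAF1* and *TRAF6*. *TRAF3*, which restrains the alternative NF-κB route, was listed with 20 PQs, above 87.5% of genes. *TRAF2*, the adaptor that brings the ubiquitin ligases BIRC2 and BIRC3 to the receptors, had 16, above 83.1%. *TRAF5*, a close relative that acts beside TRAF2, had 11 and *TRAF4*, first found in breast carcinoma, had 10. *TRAF1*, a partner of TRAF2 that lacks the RING domain of the other TRAF proteins, had 6, above 54.9% of genes. *TRAF6*, the ubiquitin ligase of interleukin-1 and Toll-like receptor signalling, had 1, and 9.97% of all genes, those listed at 0, had fewer.

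The order changed when length was taken into account. *TRAF4*, with a span of 6.95 kb, had the highest density of the members at 1.12 PQs per kb, above 95.7% of genes. *TRAF3* spans 134 kb and fell to 0.147 per kb, above 52.8%. *TRAF2* stood at 0.38 per kb, *TRAF1* at 0.227 and *TRAF5* at 0.219, and *TRAF6* remained lowest at 0.0351. When all genes were divided by length into 12 bins, 9 members had more PQs than the median of their own bin, the exception being *TRAF6* with 1 against a median of 4. *TRAF4* had 10 where the upper quartile of its bin was 5, and *TNFRSF1B* 31 where it was 10. *TRAF5*, *TRAF2* and *TNFRSF1A* were also above the upper quartile of their bins, which made 5 members. *TRAF3* lay at the upper quartile of its bin, which was 20, and *TRADD* at that of its own, which was 5. The bins were chosen after the values had been seen. The exact shares of all genes above the median or the upper quartile of their own bin were not computed. By definition, genes above a median cannot outnumber the rest of their bin, and for an upper quartile the ceiling is lower. PQs are whole numbers, and ties can only lower these shares.

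**Figure D2:**
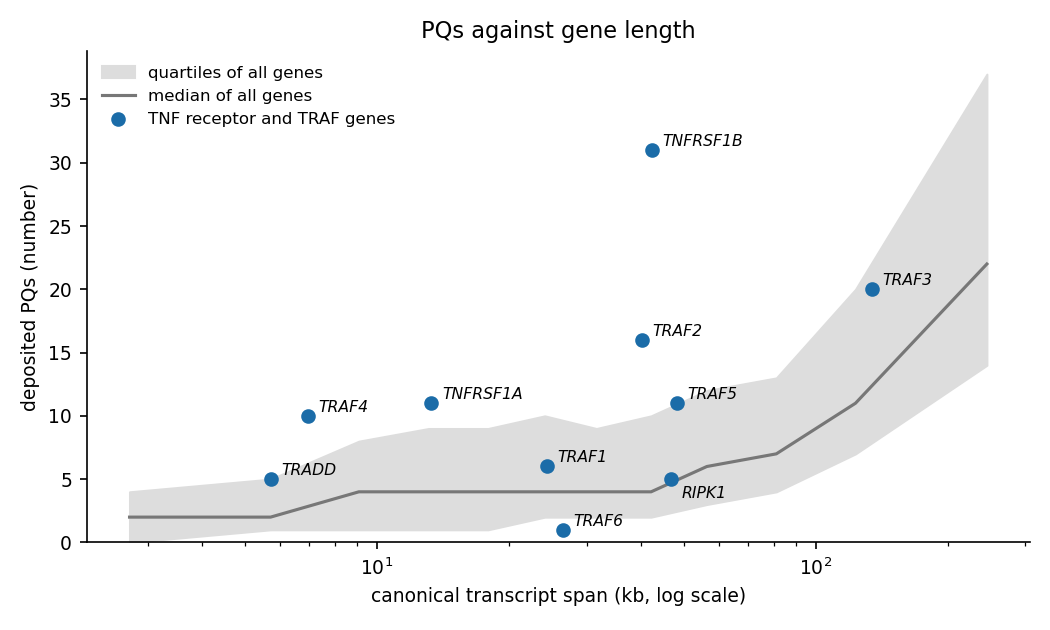
Deposited PQs (vertical axis, number) against the span of the canonical transcript (horizontal axis, kb, log scale) for the 10 members as points, with the median and quartiles of all genes in 12 bins of length as line and band. *TNFRSF1B* with 31 and *TRAF4* with 10 stand well above the band, and *TRAF6* with 1 lies below it.

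Length and base composition were not the same across members. Across the 10 genes, Spearman's rho with PQs was 0.451 for length and 0.323 for GC content, and across 11733 genes it was 0.505 and 0.247. These are descriptions over genes, which are not independent replicates. The GC content of the searched window was 59.5% in *TRAF4* and 58.8% in *TRADD*, against 45.5% in the median gene, and 38.8% in *TRAF6*. In 7 of the 10 genes it was above that of the median gene.

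To see where the motifs lie, they were counted again in hg38, over the Ensembl canonical transcript of each gene and the 2000 bases before its start. The spans, in hg38 and without those upstream bases, are chr12:6328771-6342076 for *TNFRSF1A* (minus strand), chr1:12166991-12209220 for *TNFRSF1B* (plus), chr16:67154185-67159909 for *TRADD* (minus) and chr6:3068494-3115187 for *RIPK1* (plus). Those of the TRAF genes are chr9:120902393-120926796 for *TRAF1* (minus), chr9:136886516-136926607 for *TRAF2* (plus), chr14:102777449-102911500 for *TRAF3* (plus), chr17:28744011-28750956 for *TRAF4* (plus), chr1:211326833-211374946 for *TRAF5* (plus) and chr11:36483769-36510272 for *TRAF6* (minus). This count gave 135 motifs in the 10 genes, where the deposited numbers add to 116. It was higher than the deposited number in 9 members and lower in *TRAF1*, with 5 against 6. Over the whole extent of each GENCODE gene, the span counted first, the sum was 139, and *TRAF1* had 7, *RIPK1* 10 and *TRAF2* 19, while the other 7 members had the same number. The canonical transcript was chosen after these values had been seen, because gene extents join transcripts with several start sites. The largest gap was in *TRAF3*, with 26 against 20, and *RIPK1* had 9 against 5. Of all genes, 60.5% had more motifs in this count than deposited and 35.7% had the same number. Spearman's rho of the counts was 0.951 across the members and 0.946 across all genes with a gene model, so the order of genes was much the same in both.

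Of the 135 motifs, 108 lay in introns, which is 80%, and 63 of these were in first introns. A further 15 were upstream of the start site, 6 overlapped coding sequence, 5 lay in 3′ untranslated regions and 1 in a 5′ untranslated region. The matching shares over all genes were not computed, so these counts do not set the members apart from other genes. *TNFRSF1B* had 20 of its 33 motifs in intron 1, *TRAF5* 9 of 12, *TRAF4* 7 of 12 and *TNFRSF1A* 7 of 12. *TRAF1* and *TRAF6* had none in intron 1. No motif sequence occurred more than once among the 135, and they were 16 to 35 bases long with a median of 25.

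**Figure D3:**
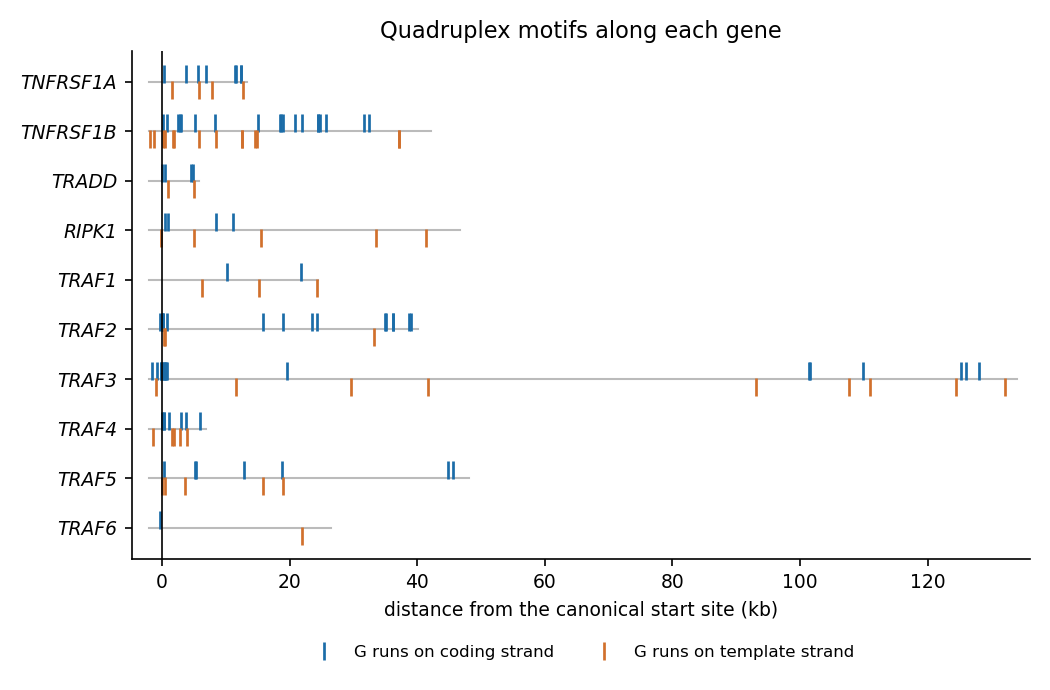
Position of each motif in hg38 for the 10 members, as distance from the canonical start site (horizontal axis, kb), with grey lines for the span searched. Ticks above a line have their G runs on the coding strand and ticks below on the template strand. *TRAF3*, which spans 134 kb, has its motifs toward both ends and none in the middle.

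The closest pair of motifs of equal length lay in intron 3 of *TNFRSF1B*. They are shown because 27 of their 30 bases are the same, with runs of 3 or more guanines in capitals (hg38, plus strand, which is the coding strand).
chr1:12191394-12191423: GGGaagagcGGGactgcGGGGaagagcGGG
chr1:12191466-12191495: GGGaggagcGGGactgtGGGGaggagcGGG

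Motifs near the start sites came next. Within 1000 bases of the start on either side there were 35 motifs in 9 members, 25.9% of those in the 10 genes, where the share over all genes was 20.5%. At least 1 such motif was present in 77.3% of all genes, so its presence does not set the members apart. *TRAF3* had 10 of them, and 98.6% of genes had fewer. *TRAF2* had 7, above 93.6% of genes. The higher share among the members rested on *TRAF3* and *TRAF2*, and without them it was not above that over all genes. *TNFRSF1B* had 4, *TRADD*, *RIPK1*, *TRAF4* and *TRAF5* had 3 each, *TNFRSF1A* and *TRAF6* had 1, and *TRAF1* had none. The median gene had 2. This window and the split by strand below were also chosen after the data had been seen, and it covers the canonical start alone. *RIPK1* and *TRAF1* each have a further RefSeq start upstream of the window, and *TRAF1* and *TRAF5* each have one downstream of it.

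**Figure D4:**
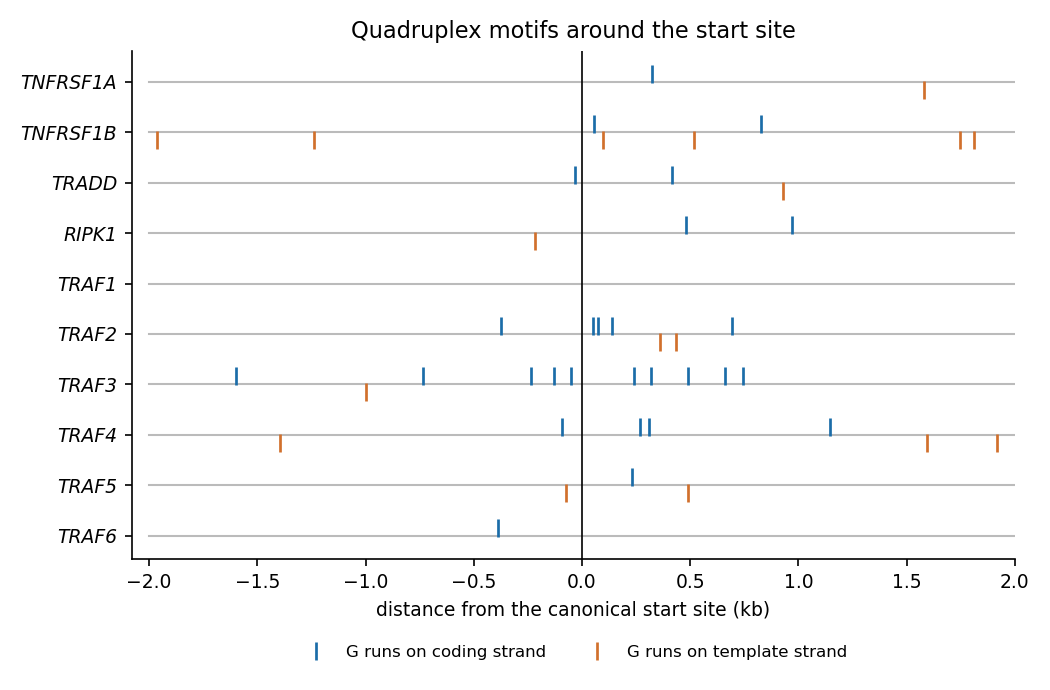
Motifs in hg38 from 2 kb before to 2 kb after the canonical start site (vertical line) of each member, with ticks above a line for G runs on the coding strand and below for the template strand. *TRAF3* has 10 motifs within 1000 bases of its start, and *TRAF1* has none.

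The nearest motif upstream of the start site is printed for each member with one within 1000 bases, to show what these sites look like, and for *TRAF3* the nearest 3. Each is written 5′ to 3′ on the strand that holds the guanines, with runs of 3 or more guanines in capitals (hg38).
TRADD, chr16:67159930-67159956, coding strand: GGGcggacGGGGcggctcGGGctaGGG
RIPK1, chr6:3068265-3068293, template strand: GGGagaaGGGtctggaGGGaagcactGGG
TRAF2, chr9:136886129-136886153, coding strand: GGGGccacGGGaGGGGaagcaaGGG
TRAF3, chr14:102777197-102777228, coding strand: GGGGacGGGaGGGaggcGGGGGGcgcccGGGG
TRAF3, chr14:102777307-102777337, coding strand: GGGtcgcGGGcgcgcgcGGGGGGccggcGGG
TRAF3, chr14:102777386-102777409, coding strand: GGGcggcGGGGGcGGGGcggcGGG
TRAF4, chr17:28743907-28743929, coding strand: GGGGGtGGGcGGGGccgcgaGGG
TRAF5, chr1:211326746-211326774, template strand: GGGcggaGGGGcgcGGGcGGGcgcaGGGG
TRAF6, chr11:36510648-36510675, coding strand: GGGcaaggaGGGtggagctGGGGaGGGG

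Counted from the start of the canonical transcript, the centre of the motif is at -34 in *TRADD*, -73 in *TRAF5*, -93 in *TRAF4*, -215 in *RIPK1*, -375 in *TRAF2* and -389 in *TRAF6*. The *TRAF3* motifs are at -237, -127 and -52. The *TRAF6* motif is 1 of only 2 in that gene, and the other lies in the 3′ untranslated region of exon 7. *TRAF2* had 3 more motifs just after its start, at 49, 73 and 138 in intron 1, all with their guanines on the coding strand.

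RefSeq start regions, which run from 250 bases before to 50 after a start (GRCh38.p14), were matched for 9 members, with 15 regions in all. The motif was found on either strand in 4 members, *RIPK1*, *TRAF3*, *TRAF4* and *TRAF5*, in 5 of the 15 regions, and 25% of 35116 regions of all genes hold it. The 2 *RIPK1* regions with a motif overlap and share it. With loops of up to 12 bases, *TRAF2* and *TRAF6* were added, making 6 members. The motif was then in 7 of the 15 regions, and 37.8% of all regions hold it. A GC box (GGGCGG on either strand, which can overlap a quadruplex motif) was present in 10 regions of 8 members and in 45% of all regions. TATAAA on either strand was present in 1 region, of *RIPK1*, and in 11.5% of all regions. These additional letters were searched after the motif counts had been seen. The matches are letters in a window and say nothing of the factors that bind.

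The *TRAF3* region had a GC content of 86%, against 58.7% in the median region. It is shown because it holds 3 motifs and was the only one of the 15 with a match to the κB consensus of NF-κB factors, which 11.3% of all regions hold on either strand. The match begins at -33, and the first motif is cut short by the edge of the region, so that it is shorter here than above. The 250 bases before the start are given on the coding strand, with the motifs in capitals.
TRAF3, chr14:102777199-102777448: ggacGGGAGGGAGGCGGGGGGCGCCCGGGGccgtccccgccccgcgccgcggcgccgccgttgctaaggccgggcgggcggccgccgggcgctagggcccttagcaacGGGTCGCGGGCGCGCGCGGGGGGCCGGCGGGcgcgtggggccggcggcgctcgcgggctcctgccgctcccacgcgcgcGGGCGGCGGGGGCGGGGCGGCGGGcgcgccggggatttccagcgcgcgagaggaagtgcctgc

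The guanines lay more often on the coding strand, the strand that reads like the RNA. Of the 135 motifs, 84 did so, which is 62.2%, while the share over all genes was 50%. Coding strand motifs outnumbered template strand motifs in 7 members, as in 42.4% of all genes, equalled them in *TRAF6* and were fewer in *RIPK1* and *TRAF1*. The 42.4% is over all genes with a gene model, of which 14.4% have fewer than the 2 motifs of *TRAF6*. It was not computed for genes with as many motifs as the members. *TRAF2* had the largest share, with 15 of 18, and *TRAF3* had 17 of 26. Without these 2 genes the share was 57.1%, 52 of 91. Near the start sites 26 of 35 motifs were on the coding strand, 74.3% against 55.3% over all genes, and *TRAF3* gave 9 of them. Farther from the start it was 58 of 100.

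Genes that act with the members were described in the same way, from 5 lists. Of all genes, 45.1% had more PQs than the median gene and 24.1% more than the upper quartile. Of 16 genes of NF-κB signalling, all listed, 10 had more PQs than the median gene and 3 more than the upper quartile, with a median of 7.5. The highest were *TAB1*, *RELB* and *IKBKG* at 12 each, and *NFKBIB*, an inhibitor of NF-κB, was lowest at 1. Ubiquitin enzymes and deubiquitinases that act on the receptor complex were listed for 11 of 12 genes, of which 4 were above the median gene and none above the upper quartile, with a median of 5. *TNFAIP3*, the deubiquitinase A20, was listed at 0, though 4 motifs were counted in hg38. Of 11 genes of death signalling 10 were listed, of which 4 were above the median gene and 2 above the upper quartile. Their median was 4, from 1 in *MLKL* and *CYCS* to 17 in *BID*.

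Other ligands and receptors of the family were listed for 11 of 20 genes, and *TNF* itself was among those without a listed number. Of these 11, 7 were above the median gene and 1 above the upper quartile, with a median of 6. The highest was *NGFR*, the low-affinity receptor of neurotrophins, at 17, and the lowest were *LTB* and *TNFRSF9* at 2. Both TNF receptor genes were thus within or above the range of 2 to 17 of these relatives, with *TNFRSF1B* above it. Of 13 TRAF partners and relatives 12 were listed, of which 6 were above the median gene and 3 above the upper quartile, with a median of 5.5. *TRAF7*, a RING protein that lacks the TRAF domain, had 39 PQs, more than any member, and *TRAF3IP1* had 23, while *MYD88* and *IRAK4*, adaptor and kinase of Toll-like receptors, had 1 each.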

How the data were processed

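Reads came from 18 RNA-seq libraries, 3 in each of 6 groups. The sources name Trimmomatic 0.36 for trimming, STAR 2.5b with the hg38 genome for alignment, marking of duplicates by molecular identifiers, FeatureCounts for counting and SARTools for the comparisons. Besides gene symbols, the 5 tables deposited by the authors hold the log2 fold change, false discovery rate and subset marks of those comparisons. These were not used. No values per library were available here, so the tests of level foreseen in the design were not run. The PQ column used was taken by the authors from an earlier study of theirs: 4 runs of at least 3 guanines with loops of 1 to 7 bases, in promoters, exons and introns. The build behind it is not given in the sources used here. It was equal in both tables of parental cells for all 13503 genes.

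The same motif was counted on both strands of hg38, without overlap, in Ensembl canonical transcripts (GENCODE release 44) and 2000 bases upstream. By symbol, 11733 genes (86.9%) had a gene model, and ranks per kb or in hg38 are over these. The search was tested on constructed sequences. Start regions are from RefSeq (GRCh38.p14). All members are named, and of each pathway list at most the 2 highest and 2 lowest genes by PQs, with ties. Members and lists were chosen with earlier results of these data known. Scripts ran in Python 3.11.15 (pandas 2.3.3, numpy 2.4.6, matplotlib 3.10.9, scipy 1.17.1).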

Additional observations from a re-analysis of the deposited data

How the results depend on the processing

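The number of members above the median gene, 7 for the deposited PQs, was 6 against genes with at least 1 PQ, without *TRAF1*, and 8 per kb, with *TRADD* added. It was 7 for motifs counted in hg38, 9 for these per kb and 7 for motifs over the whole gene extent, all chosen after the data were seen. The share of all genes above the median was 45.1% for the deposited PQs and was not computed for the other settings. These counts were therefore not compared with their exact backgrounds. By definition, genes above a median cannot outnumber the rest in any of these settings. In both counts of 7 in hg38, 6 members were shared with the deposited PQs, *RIPK1* was added and *TRAF1* was not above the median, and per kb in hg38 *RIPK1* and *TRADD* were added. Ranks of single members moved more. *TRAF3* went from above 87.5% of genes to above 52.8% per kb, and *TRADD* from 48.9% to 86.4%. The number of members with a motif in a start region was 4, and 6 with loops of up to 12 bases. Per kb values use the canonical transcript, while the gene models behind the deposited numbers are not given in the sources used here. No paired analysis was possible because no values per library were available here. For the same reason another normalization, a count filter, another test, another pseudocount and leaving out replicates were not run. A motif in sequence does not show that a quadruplex forms in cells.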
